A study of Schmidtea mediterranea with 11 samples.

Results

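The transcripts prog-1 (comp332_c0_seq1), prog-1-1 (comp478_c0_seq1) and pmp-3 (comp3549_c0_seq1) mark early progeny of planarian stem cells. They are 3 of the 26562 transcripts in the deposited table, chosen by identifier and followed through all 11 libraries. All 3 were among the 15492 transcripts tested. The table holds identifiers of a transcriptome assembly and no gene names, so the pairing of names with identifiers rests on the study's annotation, which was read from an image, and was not checked by sequence.

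The libraries were made from polyA RNA of whole adult Schmidtea mediterranea, a freshwater flatworm, of the asexual Berlin-1 strain, which was raised from 1 individual. Worms were injected with double-stranded RNA on consecutive days. The control worms received double-stranded RNA of gfp, a gene that the worm lacks, the bruli worms that of the CELF factor Smed-bruno-like, and the mbnl worms that of 4 muscleblind genes together. Each of these groups has 1 library at days 20, 25 and 30, and worms injected against Smed-H2B or against Smedwi-2 gave 1 library each, with no stated day. With 1 library per group and day, the 3 days stand in for replicates, so that a p-value reflects the spread of these libraries and not of separate cultures.

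Neoblasts are the dividing stem cells of the planarian, and all other cell types descend from them. Part of their offspring leaves the cell cycle and passes through an early and then a late progeny state on the way to the epidermis. The prog genes are the classical labels of the early state. Because these cells are short-lived and are replaced from neoblasts, their transcripts fall soon after neoblasts are removed. In RNA of whole worms, fewer cells of a type and less RNA per cell cannot be told apart.

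For prog-1, the study lists oligonucleotides for a probe and for qPCR. They are shown because the assays share a primer site. Capitals mark the 17 bases that the first probe oligonucleotide and the second qPCR oligonucleotide share on the same strand, each written 5′ to 3′.
prog-1 probe, first: gtgaTTGCGTTCGCGTATATT
prog-1 probe, second: atttatccagcgcgtcatattc
prog-1 qPCR, first: tccgtttttcacgtcatctg
prog-1 qPCR, second: TTGCGTTCGCGTATATTgaa

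Levels are given as TPM, the usual transcript abundance unit, which is a read count scaled to transcript length and to the library total. The digits of the values allowed the reads behind them to be recovered for 26560 of the 26562 transcripts, with a length of 963 nt for prog-1, 681 nt for prog-1-1 and 788 nt for pmp-3. Libraries held 5634225 to 8911204 recovered reads. In the controls, prog-1-1 was the most abundant member per length (408 ± 84.7 TPM, SD, n = 3), followed by prog-1 (346 ± 68.3 TPM) and pmp-3 (33.5 ± 7.0 TPM). The ranges of prog-1-1 (319 to 487 TPM) and prog-1 (268 to 391 TPM) overlapped over the controls, although prog-1-1 was the higher one in each of the 11 libraries. pmp-3 lay below both in every library.

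The members varied more among the 3 controls than the 5 lineage transcripts set beside them. prog-1 stood at 391, 268 and 381 TPM in the control libraries of days 20, 25 and 30, with 2204, 1639 and 1672 reads. prog-1-1 stood at 487, 319 and 419 TPM in the same libraries. pmp-3 stood at 34.4, 26.1 and 40.1 TPM. The day 25 control was thus the lowest control for each of the 3 members. The coefficient of variation over the controls was 19.7% for prog-1, 20.7% for prog-1-1 and 20.9% for pmp-3. It was 8.28% for prog-2-1, another early progeny transcript, 4.78% for smedwi-1, the piwi gene that labels neoblasts, 1.59% for pcna, the DNA replication clamp of dividing cells, 3.78% for p53 and 5.62% for soxP-2.

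**Figure D1:**
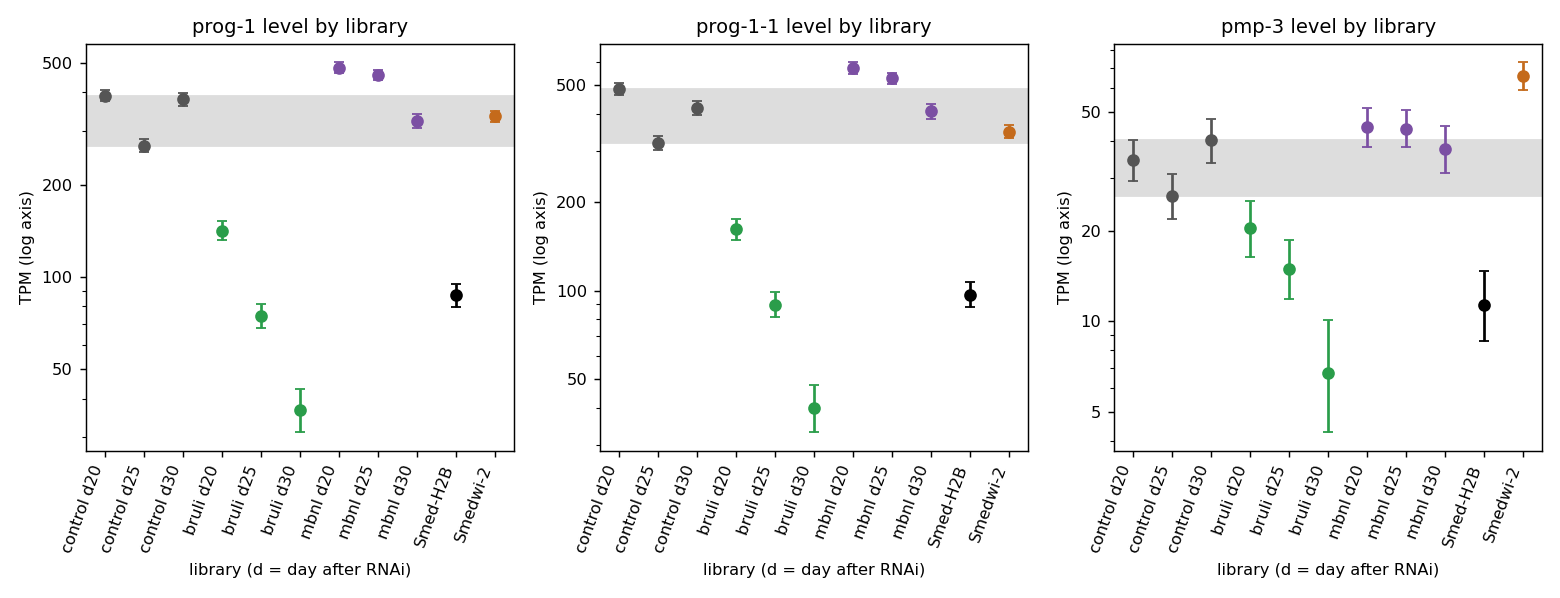
TPM of prog-1, prog-1-1 and pmp-3 (log axes, a separate scale per panel) in each library. Bars are exact 95% Poisson intervals of the recovered reads, which cover counting error only, and the grey band is the range of the 3 controls. The bruli and Smed-H2B libraries lie below the band for all 3 members, and Smedwi-2 lies above it only for pmp-3.

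The question of the first comparison was what happens to early progeny when bruli is knocked down. bruli itself was at 83.6 ± 1.10 TPM in controls and 4.64 ± 1.53 TPM after its own knockdown (n = 3 each). The 3 early progeny transcripts fell with it. At days 20, 25 and 30 the bruli libraries held prog-1 at 141, 74.4 and 36.6 TPM (745, 492 and 153 reads). They held prog-1-1 at 162, 89.8 and 39.9 TPM (604, 420 and 118 reads) and pmp-3 at 20.4, 15.0 and 6.73 TPM (88, 81 and 23 reads). No bruli library overlapped a control for any of the 3, and the same held in this direction for 18.6% of all transcripts tested.

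On the scale of log2(TPM+1), with the day as a block, limma gave a difference from control of -2.21 for prog-1 (95% interval -2.87 to -1.55, adjusted p = 0.00220). For prog-1-1 the limma difference was -2.25 (-2.90 to -1.60, adjusted p = 0.00191). For pmp-3 it was smaller, at -1.30 (-1.93 to -0.67, limma adjusted p = 0.0129). All 3 members were thus called lower, against 11.3% of all transcripts tested, and the median difference of all transcripts was 0.00. Of the transcripts tested, 20 had a lower difference than prog-1, 19 than prog-1-1 and 115 than pmp-3. The pmp-3 call was lost in a limma fit of the 2 groups alone (adjusted p = 0.0518) and without all libraries of day 25 (adjusted p = 0.0708), and its difference was -0.85 without the bruli library of day 30 and -0.75 without all libraries of that day.

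Set against the control of the same day, prog-1 was at 36.2% at day 20, 27.8% at day 25 and 9.62% at day 30. The values of prog-1-1 were 33.3%, 28.1% and 9.53%. Those of pmp-3 were 59.3%, 57.2% and 16.8%. The members were therefore lower at every day, as were 25.5% of all transcripts, and each day was lower than the one before, as for 10.4% of all transcripts. Within the bruli libraries alone, prog-1 was 3.86-fold, prog-1-1 4.06-fold and pmp-3 3.04-fold higher at day 20 than at day 30. At day 30 the 23 reads of pmp-3 gave an interval of 4.26 to 10.1 TPM, still below the 26.1 TPM of the lowest control.

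The widening distance to control was tested as a time trend in limma. Per 10 days it was -1.88 for prog-1 (95% interval -2.76 to -1.01, limma adjusted p = 0.410). For prog-1-1 it was -1.78 (-2.62 to -0.94, limma adjusted p = 0.410) and for pmp-3 -1.68 (-2.64 to -0.73, limma adjusted p = 0.423). All 3 members had an unadjusted p under 0.05. No trend passed the adjusted threshold among all transcripts (0%), although 353 transcripts had a positive and 1160 a negative trend at an unadjusted p under 0.05 in limma. That balance rested on the scaling, with 760 positive and 578 negative after median centring and 622 and 719 after quantile normalization of all libraries. The voom method of limma on the recovered reads called 1 transcript, and gave the members adjusted p-values of 0.480 to 0.485. Without the day 30 control the trends were -0.83 for prog-1, -0.77 for prog-1-1 and -0.70 for pmp-3, and without the day 20 control -2.94, -2.78 and -2.67. For pmp-3 the trend was -1.06 without the bruli library of day 30. The fit left 3 residual degrees of freedom.

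**Figure D2:**
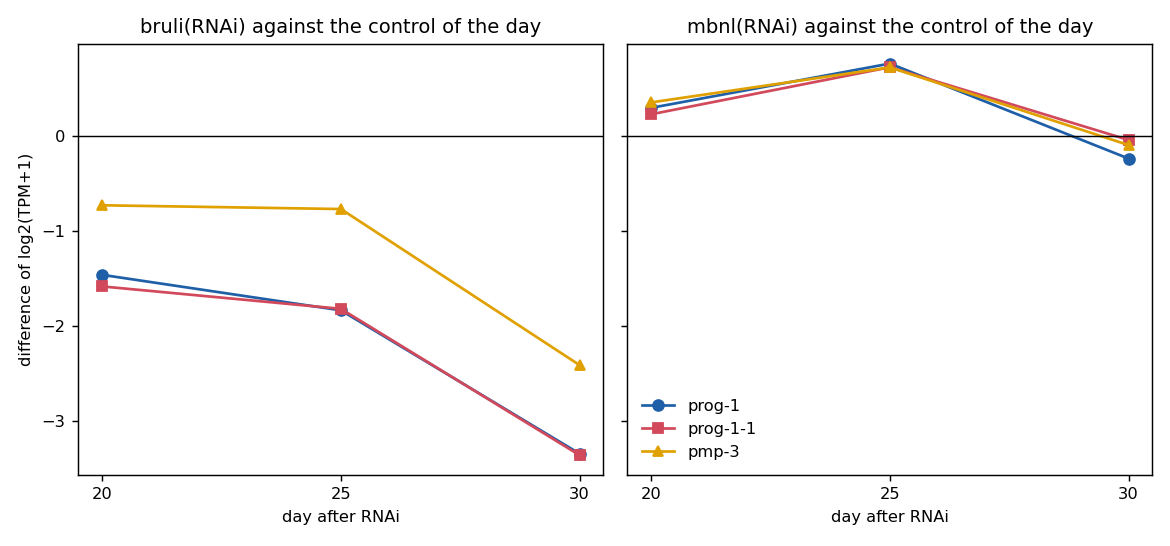
Difference of log2(TPM+1) from the control of the same day (y axis) by day after RNAi (x axis), for bruli (left) and mbnl (right), with 1 library per point and so no error bar. After bruli knockdown the lines of prog-1 and prog-1-1 lie almost on each other and that of pmp-3 lies above them. After mbnl knockdown the 3 lines peak at day 25, the day of the lowest control.

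The second comparison asked the same of the mbnl genes. Of their 4 transcripts, 3 fell after the combined knockdown. mbnl-like-1 was at 18.3 ± 0.462 TPM in controls and 4.01 ± 0.692 TPM after knockdown, whereas mbnl-like-3 was low in both, at 2.58 ± 0.508 and 2.40 ± 0.680 TPM (n = 3 each). prog-1 stood at 481, 456 and 323 TPM in the mbnl libraries of days 20, 25 and 30. prog-1-1 stood at 573, 529 and 408 TPM. pmp-3 stood at 44.4, 43.9 and 37.5 TPM. The libraries of days 20 and 25 lay above every control for each member, and that of day 30 lay within the control range. The share of all transcripts with this pattern was not counted.

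The differences from control did not pass the test. They were 0.28 for prog-1 (95% interval -0.38 to 0.94, limma adjusted p = 0.599), 0.31 for prog-1-1 (-0.34 to 0.96, limma adjusted p = 0.548) and 0.33 for pmp-3 (-0.30 to 0.96, limma adjusted p = 0.50). limma thus called 0 of the 3 members, with 0 at an unadjusted p under 0.05 in the main fit and 0 by voom. Of all transcripts, 4.31% were called higher and 1.68% lower. At an unadjusted limma p under 0.05, 2966 of the 15492 transcripts were higher and 784 lower. By voom, 752 were called higher and 367 lower. The main fit shares its estimate of spread with the bruli libraries. In a limma fit of mbnl and control alone, the standard errors were 0.17, 0.14 and 0.15, against 0.29, 0.29 and 0.28. Adjusted p was 0.37, 0.24 and 0.25 in that limma fit. Without all libraries of day 30, the differences were 0.53, 0.48 and 0.54. Their limma p was 0.018, 0.019 and 0.0041 unadjusted, and 0.21, 0.21 and 0.13 adjusted. The median difference of all transcripts was 0.11, and the balance of calls turned with the scaling: 667 were higher and 261 lower as deposited, 212 and 557 after median centring, and 261 and 375 after quantile normalization of all libraries. The intervals of the main fit leave room for a rise of up to about 0.96 and for a fall of up to -0.38.

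The size of these differences varied by day. At day 25 prog-1 stood at 170% of the control of that day, against 123% at day 20 and 85.0% at day 30. For prog-1-1 these values were 166%, 118% and 97.4%, and for pmp-3 168%, 129% and 93.7%. Without the day 25 control, the difference of prog-1 was 0.06, that of prog-1-1 0.09 and that of pmp-3 0.10. Without the day 30 control, they were 0.69, 0.67 and 0.71, so that the estimate moved with the control library left out.

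The knockdowns were also compared with each other, which leaves the control libraries out of the difference. Taken as bruli minus mbnl, the difference was -2.49 for prog-1 (limma adjusted p = 0.000830), -2.56 for prog-1-1 (limma adjusted p = 0.000690) and -1.63 for pmp-3 (limma adjusted p = 0.00350). All 3 were called lower, against 20.0% of all transcripts tested. Over all transcripts 812 were higher and 3103 lower as deposited, but 2169 and 1643 after median centring and 1496 and 1928 after quantile normalization of all libraries. The 3 members stayed lower and called under both. The lowest mbnl library was above the highest bruli library for each: 323 against 141 TPM for prog-1, 408 against 162 TPM for prog-1-1 and 37.5 against 20.4 TPM for pmp-3. How many of all transcripts separated in this way was not counted.

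**Figure D3:**
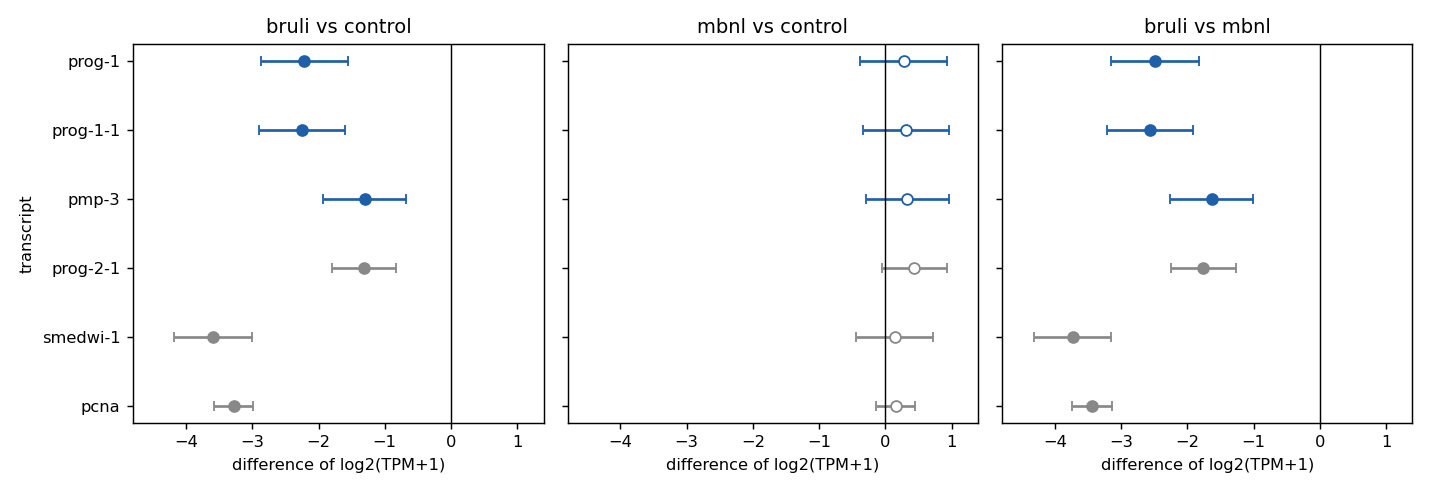
Difference of log2(TPM+1) from limma (x axis) with 95% intervals, 3 libraries per group, for the 3 members (blue) and 3 lineage transcripts (grey). Filled points passed an adjusted p of 0.05. The members lie at -2.21, -2.25 and -1.30 in bruli against control, and their intervals include 0 in mbnl against control.

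Ratios between members within a library show whether they moved by like amounts, whatever the scaling. The ratio of prog-1-1 to prog-1 lay between 1.09 and 1.26 in all 9 time course libraries, a range narrow beside the change of either. Its log2 value differed by -0.04 between bruli and control libraries (exact permutation test, two-sided, p = 0.6) and by 0.03 between mbnl and control (exact p = 0.7). Whether the pair shares reads through similar sequence was not tested. The ratio of pmp-3 to prog-1 was 0.0882, 0.0977 and 0.105 in the controls and 0.144, 0.201 and 0.184 in the bruli libraries at days 20, 25 and 30, so that the groups did not overlap. It was 0.0923, 0.0963 and 0.116 in the mbnl libraries, which overlapped the controls.

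In log2, the ratio of pmp-3 to prog-1 was 0.91 higher after bruli knockdown than in control, and that of pmp-3 to prog-1-1 was 0.95 higher. Both had an exact permutation p of 0.1, which is the smallest that 3 against 3 libraries can give, and 0.3 after Benjamini-Hochberg adjustment over the 6 ratio tests. After mbnl knockdown the differences were 0.05 (exact p = 0.7) and 0.02 (exact p = 1.0). pmp-3 had far fewer reads than prog-1, and its ratio in the bruli library of day 30 had a 95% counting interval of 0.118 to 0.285.

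**Figure D4:**
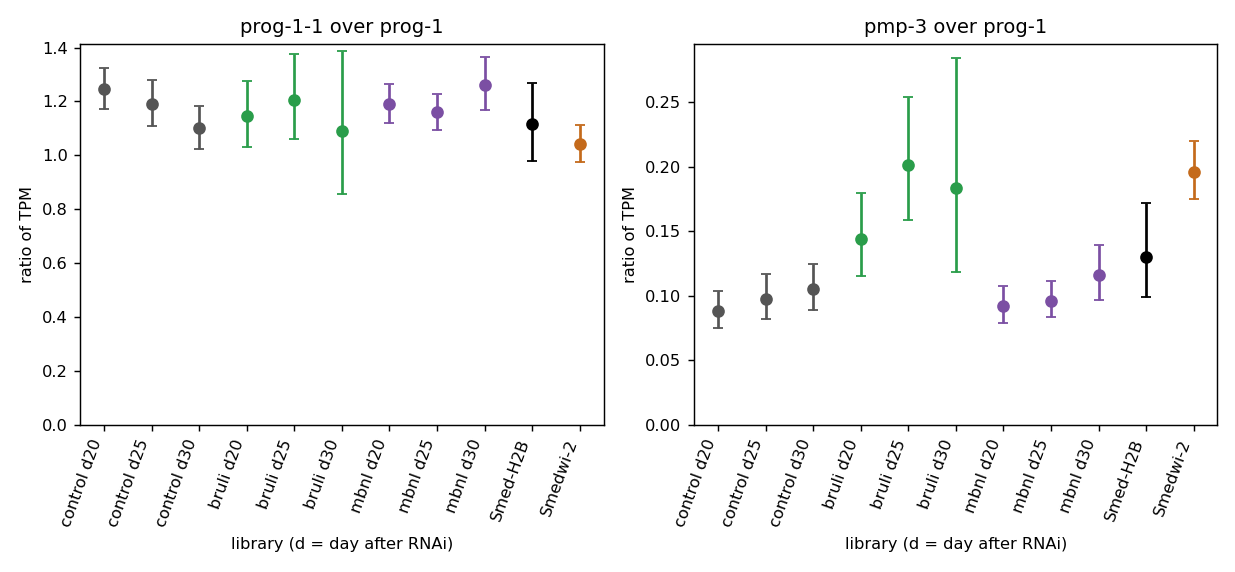
Ratio of TPM of prog-1-1 to prog-1 (left) and of pmp-3 to prog-1 (right) in each library, with 95% intervals from the recovered reads, which cover counting error only. The left ratio stays between 1.04 and 1.26, while the right ratio is 0.0882 to 0.105 in controls, 0.144 to 0.201 after bruli knockdown and 0.196 in the Smedwi-2 library.

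Smed-H2B, a histone gene expressed in dividing cells, and Smedwi-2, a piwi gene that neoblasts need to give rise to working progeny, were each knocked down in 1 library without a stated day. These libraries were set against the range of the 3 controls, with no test, and their target transcripts were not analysed here. In the Smed-H2B library prog-1 was at 87.1 TPM (525 reads), prog-1-1 at 97.1 TPM (414 reads) and pmp-3 at 11.3 TPM (56 reads). All 3 lay below the lowest control, as did 32.4% of all transcripts, and inside the range of the bruli libraries. They reached 25.1%, 23.8% and 33.8% of the control mean, which is 3.07-fold, 3.29-fold and 2.30-fold below the lowest control. Counted over the transcripts tested, 17 lay further below their control mean than prog-1 did, 11 further than prog-1-1 and 87 further than pmp-3.

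In the Smedwi-2 library pmp-3 alone of the members lay above the controls. prog-1 was at 334 TPM (2129 reads) and prog-1-1 at 348 TPM (1569 reads), both within the control range, at 96.4% and 85.2% of the control mean. That position rested on the low day 25 control: without it, both lay below the 2 remaining controls, by -0.21 and -0.38 from their mean on the log2 scale. pmp-3 was at 65.6 TPM (342 reads, 95% interval 58.8 to 72.9 TPM), which is 195% of the control mean and 1.64-fold above the highest control. Of all transcripts tested, 36.0% lay above the highest control in this library, and 376 rose further above their control mean than pmp-3. The early progeny transcript prog-2-1 was also above, at 2830 TPM against 1695 to 1985 TPM in the controls. On the log2 scale pmp-3 lay 0.97 above the control mean, and 0.80 to 1.10 above it with 1 control left out. With 1 library, none of these positions has a replicate check.

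**Figure D5:**
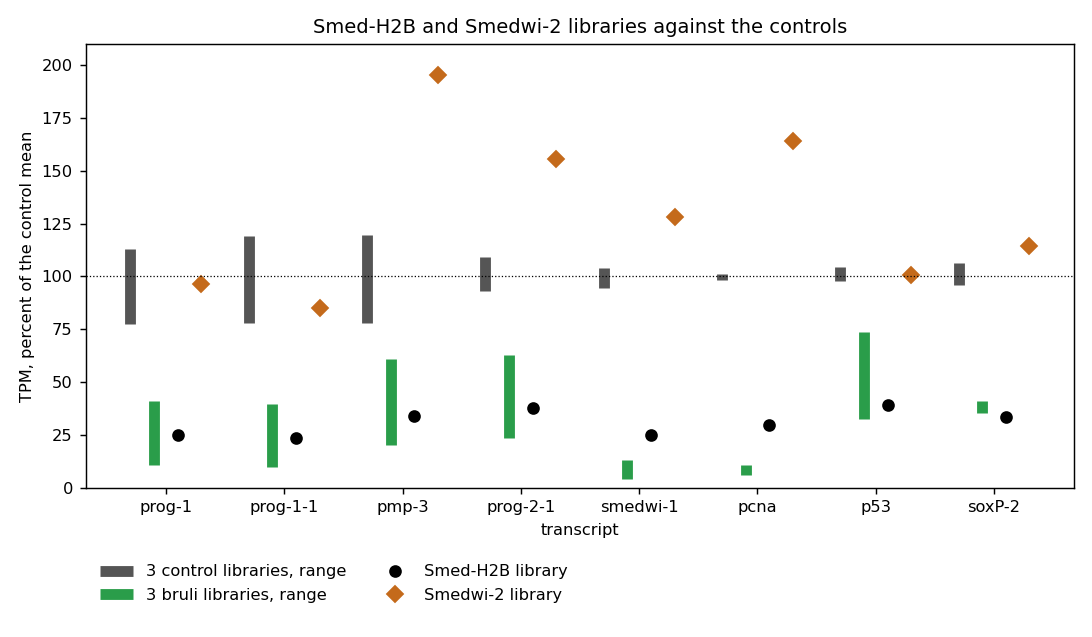
TPM as percent of the control mean (y axis) for the 3 members and 5 lineage transcripts (x axis). Bars are the ranges of the 3 control and the 3 bruli libraries, and points are the single Smed-H2B and Smedwi-2 libraries. pmp-3 reaches 195% in the Smedwi-2 library, where prog-1 stands at 96.4%.

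Neoblast transcripts and the early progeny transcript prog-2-1 were set beside the members. After bruli knockdown all 5 lineage transcripts set beside them were called lower in limma, against 11.3% of all transcripts, with a median difference of -1.32. After mbnl knockdown 0 were called, against 4.31% higher and 1.68% lower over all transcripts. The 5 are prog-2-1, smedwi-1, pcna, the zeta-neoblast gene p53 and the sigma-neoblast gene soxP-2. smedwi-1 differed by -3.59 (limma adjusted p = 0.000152) and pcna by -3.28 (limma adjusted p = 3.37e-06), both more than the members, while prog-2-1 differed by -1.32 (limma adjusted p = 0.00474), close to pmp-3. In the Smed-H2B library all 5 were below the controls, as were 32.4% of all transcripts. In the Smedwi-2 library smedwi-1 (128% of the control mean), pcna (164%), soxP-2 (114%) and prog-2-1 (156%) were above the controls while p53 (101%) was within. There 36.0% of all transcripts were above the controls.

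RNA binding proteins from the study's own sorted-cell table gave a wider view, with no knockdown target taken out of the lists. Of 17 enriched in neoblasts, 15 were tested. After bruli knockdown 14 were called lower, against 11.3% of all transcripts (median -0.87, against 0.00 over all transcripts). After mbnl knockdown 0 were called, against 4.31% higher and 1.68% lower over all transcripts (median 0.15, against 0.11). The summed level of the 17 was 904 to 975 TPM in controls, 316 to 404 TPM after bruli knockdown, 1011 to 1117 TPM after mbnl knockdown, 413 TPM in the Smed-H2B library and 1232 TPM in the Smedwi-2 library. Of 43 enriched in differentiated cells, 42 were tested, of which 1 was called lower and 5 higher after bruli knockdown, where 1758 and 1045 of the 15492 transcripts were. After mbnl knockdown 1 was called lower and 4 higher, where 261 and 667 of all transcripts were. Their summed level was 1762 to 1933 TPM in controls, 1815 to 1841 TPM after bruli and 1796 to 1958 TPM after mbnl knockdown, 1967 TPM in the Smed-H2B library and 1795 TPM in the Smedwi-2 library. The part of these cell types in the members' levels was not tested.

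Likeness of pattern to prog-1 was described by Pearson's r of log2(TPM+1) over the 11 libraries, among 15491 other transcripts. The libraries share their groups and controls, so r describes these libraries only. prog-1-1 ranked first (r = 0.998), followed by comp213_c0_seq1 (r = 0.989) and comp554_c0_seq1 (r = 0.987), which carry no name in the files. p53 ranked 21 (r = 0.973), prog-2-1 ranked 34 (r = 0.970), smedwi-1 ranked 157 (r = 0.951) and pcna ranked 863 (r = 0.882). Among the RNA binding proteins, the transcripts with RPS3, TIA1 and PTBP2 as best human hit came closest (r = 0.972, 0.968 and 0.964). Their differences after bruli knockdown were -0.61, -0.53 and -0.81. They were picked by r over these same libraries, so their fall after bruli knockdown is no separate result.

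With the group means removed, over the 9 time course libraries, r with prog-1 was 0.993 for prog-1-1 (rank 1), 0.960 for pmp-3 (rank 28), 0.959 for prog-2-1 (rank 31), 0.895 for smedwi-1 and -0.12 for pcna. In this r, prog-2-1, smedwi-1 and p53 (r = 0.934, rank 79) thus also lay near prog-1, and soxP-2 less closely (r = 0.546). It pools the 3 groups, and the largest changes were in the bruli libraries. There prog-1 was 3.86-fold and smedwi-1 3.11-fold higher at day 20 than at day 30. In the controls smedwi-1 stood at 193, 206 and 212 TPM at days 20, 25 and 30, unlike the course of prog-1. In the mbnl libraries smedwi-1 stood at 212, 242 and 220 TPM, again unlike prog-1. pcna did not share the high pooled r. It varied little among the controls (coefficient of variation 1.59%) and had 23 to 30 reads in the bruli libraries, which limits what its r can show.

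pmp-3 was less like prog-1 over the 11 libraries (r = 0.944, rank 209) than over the 9 of the time course (r = 0.985, rank 21). Over the 11 it was most like prog-2-1 among the named transcripts (r = 0.982, rank 3 of 15491). The unnamed comp213_c0_seq1 shared the low day 25 control, with 530, 365 and 453 TPM at days 20, 25 and 30, and so did comp554_c0_seq1, with 170, 114 and 154 TPM. Their difference after bruli knockdown was -1.62 for comp213_c0_seq1 and -2.17 for comp554_c0_seq1. Both were picked by their r with prog-1 over these libraries, so likeness in these values is no separate result.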

How the data were processed

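Whole-worm polyA RNA was sequenced in 11 libraries. The authors mapped reads to the Dresden transcriptome and counted them per transcript, and the submitters' processing notes name CASAVA 1.8.2, Bowtie2 2.1.0 and HTSeq 0.6.1p1. The deposited TPM values sum to 1000000 per library, and how counts became TPM is not given in the sources used here. No genome or reference sequence was used here, so no position is given.

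Read counts were recovered from the deposited TPM as whole multiples of the value of 1 read (tolerance 0.001, largest distance 9.47e-07). They gave whole reads for 26560 of 26562 transcripts (99.9925%), of which 796 were at 0 in every library. Exact Poisson intervals of these reads, at 95%, cover counting error only.

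The 15492 transcripts with a mean log2(TPM+1) above 1.5 over the 9 time course libraries were fitted in limma 3.58.1 (R 4.3.3) with group and day, a mean-variance trend and Benjamini-Hochberg adjustment at 0.05. Time trends used the day as a number. The day entered as a block since the study set every knockdown against its same-day control. Same-day libraries of different groups correlated at -0.0118 to 0.256 (mean 0.148) in their deviations from the group means. The mean for different days was -0.073. The day 30 control had the lowest same-day values, 0.0383 with bruli and -0.0118 with mbnl. Ratios were tested with scipy 1.17.1. The recovery and the fits were tested on simulated data, with outcomes not given here. The simulated reads had the same dispersion for every transcript and no day effect shared by the groups.

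The members, lists and tests were chosen with earlier results of these data known. The named transcripts were the members, the knockdown targets, 5 lineage transcripts, the 3 RNA binding proteins and the 2 further transcripts most like prog-1. The RNA binding protein lists hold those with an X1-Xins log2 value of at least 3, or of -1 or less, in the study's table. Alternatives were pseudocounts of 0.5 and 5, other filters, scalings and variance models, no block, only the groups compared, leaving out libraries or days, and, added after the data were seen, limma's voom on the recovered reads.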

Additional observations from a re-analysis of the deposited data

How the results depend on the processing

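The limma calls of prog-1 and prog-1-1 kept their direction and side of the threshold under every alternative run. For pmp-3, bruli against control was -1.30 with limma adjusted p = 0.0518 when only the groups compared were fitted, and -1.57 (limma adjusted p = 0.0708) without all libraries of day 25; over the fits that left out libraries it ranged from -1.59 to -0.75, with adjusted p from 0.00808 to 0.0708. The limma time trend of mbnl against control, not called in any fit, turned positive without the day 30 control, and over the fits that left out a library it ranged from -1.58 to 0.52 for prog-1, from -1.27 to 0.73 for prog-1-1 and from -1.43 to 0.53 for pmp-3. That of bruli against control stayed negative, from -2.94 to -0.83, from -2.78 to -0.77 and from -2.67 to -0.70. With a pseudocount of 5, the log2 ratio of pmp-3 to prog-1-1 after mbnl knockdown differed from control by -0.0070. The causes were not tested. Without the replicate block, the differences stayed at -2.21, -2.25 and -1.30 for bruli against control (limma adjusted p = 0.00434, 0.00436 and 0.0164), and no call of a member changed. Over all transcripts, limma called 2803 for bruli against control, 928 for mbnl against control and 3915 for bruli against mbnl; without day 25 these were 201, 43 and 702, and with voom 3167, 1119 and 4252. Depth limits pmp-3 most, with 23 reads in the bruli library of day 30.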
